A study of Mus musculus with 12 samples.

Results

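The extracellular matrix glycoproteins and the basement membrane were represented by 40 genes, chosen by symbol as non-collagen proteins of elastic fibres and microfibrils (14 genes), adhesive and matricellular proteins (16 genes) and basement membrane proteins (10 genes). All 40 were found among the 38293 gene identifiers of the count tables. The 40 were chosen with earlier results of these data known. Setting their counts beside those of all genes is therefore no independent test. Fibrillins, fibulins and elastin build the elastic fibres that let tissue recoil, and fibronectin, tenascin-C, thrombospondins and SPARC bind cells and steer the deposition of collagen. Laminins, nidogens and perlecan form the thin sheet that wraps each cardiomyocyte and underlies each capillary. In the heart most of the first 2 groups comes from fibroblasts, whereas cardiomyocytes and endothelial cells contribute much of the basement membrane.

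RNA was sequenced from 12 mouse hearts, 3 per group, in 2 experiments. In the first, wild-type mice had sham surgery (WT sham) or ischaemia-reperfusion injury (IR), a temporary tie of the left anterior descending coronary artery, with tissue taken on day 14 (WT IR). In the second, both groups had IR and tissue was taken on day 14: wild-type littermates (Zeb2 WT IR) and mice that carry a lox-stop-lox Zeb2 allele in the Rosa26 locus with Cre recombinase under the cardiomyocyte promoter of Myh6 (Zeb2 cTg IR). The mice were 8 to 9 weeks old, the methods differ on whether they were male or of both sexes, and the labels do not give the day on which the sham hearts were taken. The sham titles give the strain as C75Bl/6J and those of the other 3 groups as C57Bl/6J. ZEB2 is a zinc-finger transcription factor. The sources differ on the tissue, which is called remote zone in the methods, left ventricle in the labels and infarct area with border zone in the design text, and which of these holds could not be settled here. Cre was driven in cardiomyocytes and not in fibroblasts, and the labels do not say whether the littermates carried Cre alone.

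Between 20215781 and 36816818 counts were assigned per library, of which 60.6% to 73.5% lay on the mitochondrial genome and 5706340 to 11618213 did not. Values are CPM, the counts of a gene per 1e+06 counts of its library after TMM scaling, and 1 CPM stood for 17.2 to 37.8 counts. Cardiomyocyte markers fitted the labelled tissue, with Myh6 at a mean of 8305 CPM in WT sham. Zeb2 itself was at 54.7, 57.8 and 67.0 CPM in Zeb2 WT IR and at 55.5, 56.9 and 58.7 CPM in the libraries labelled Zeb2 cTg IR (log2 fold change -0.07, SE 0.12, adjusted p = 0.750 in edgeR's quasi-likelihood test), so the counts of Zeb2 do not check the labels, on which every direction in the second experiment rests. Whether transcripts of the transgene were counted on Zeb2 is not given in the sources used here. Those 3 libraries are called cTg-labelled here. In that experiment replicate 2 of both groups held the largest mitochondrial shares of its group, 73.5% and 70.6%, and log2 fold changes rose with GC content across all genes (Spearman's rho 0.55 over 12892 genes). In the first experiment this correlation was -0.29 over 13609 genes.

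The first question was which of these genes differed 14 days after IR. Of the 40, 28 were higher in WT IR than in WT sham and 3 were lower at an adjusted p under 0.05, against 11.0% and 9.74% of all 13756 genes tested. The 3 libraries of WT IR lay above all 3 of WT sham for 29 genes and below them for 3, against 20.5% and 19.3% of all genes. The median log2 fold change of the 40 was 0.86, beside 0.01 for all genes. Together the 40 genes took 1688 to 2000 CPM in WT sham and 2324 to 3590 CPM in WT IR, where replicate 1 was lowest and replicate 3 highest. The rise was uneven among the roles: the median log2 fold change was 1.60 for elastic fibre and microfibril genes, 1.31 for adhesive and matricellular genes and 0.12 for basement membrane genes.

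Markers of some other cells moved with this comparison and those of others did not. The summed level of 18 fibroblast markers was 1015 to 1394 CPM in WT sham and 2318 to 4893 CPM in WT IR, and 14 of the 18 were higher. Pdgfra, a defining receptor of fibroblasts, was 1.72-fold higher (adjusted p = 0.0111), and Tcf21, a fibroblast transcription factor, was at 1.35 ± 0.10 and 1.98 ± 0.63 CPM (adjusted p = 0.144). The 16 macrophage markers summed to 187 to 206 CPM and 266 to 499 CPM, with 11 higher. The 22 cardiomyocyte markers summed to 63909 to 70606 CPM and 50378 to 63959 CPM, which overlapped by a little, with 1 higher and 6 lower. The 18 endothelial markers overlapped, at 1510.5 to 1587.5 CPM and 1298.5 to 1614.1 CPM, with 0 higher and 1 lower. The 14 markers of smooth muscle and pericytes also overlapped, at 824 to 847 CPM and 730 to 900 CPM, with 2 higher and 3 lower. More cells of a type and more RNA per cell cannot be told apart in these libraries. When libraries were scaled to the fibroblast markers, the all-gene median went to -1.09 and that of the 40 genes to -0.27. Such a rescaling moves all genes by nearly the same amount. The difference between the medians, 0.85 before and 0.82 after, was therefore nearly fixed beforehand and tests nothing. On that scale 8 of the 40 were higher and 11 lower. Scaling to the cardiomyocyte markers, with an all-gene median of 0.26, gave 30 higher and 0 lower.

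**Figure D1:**
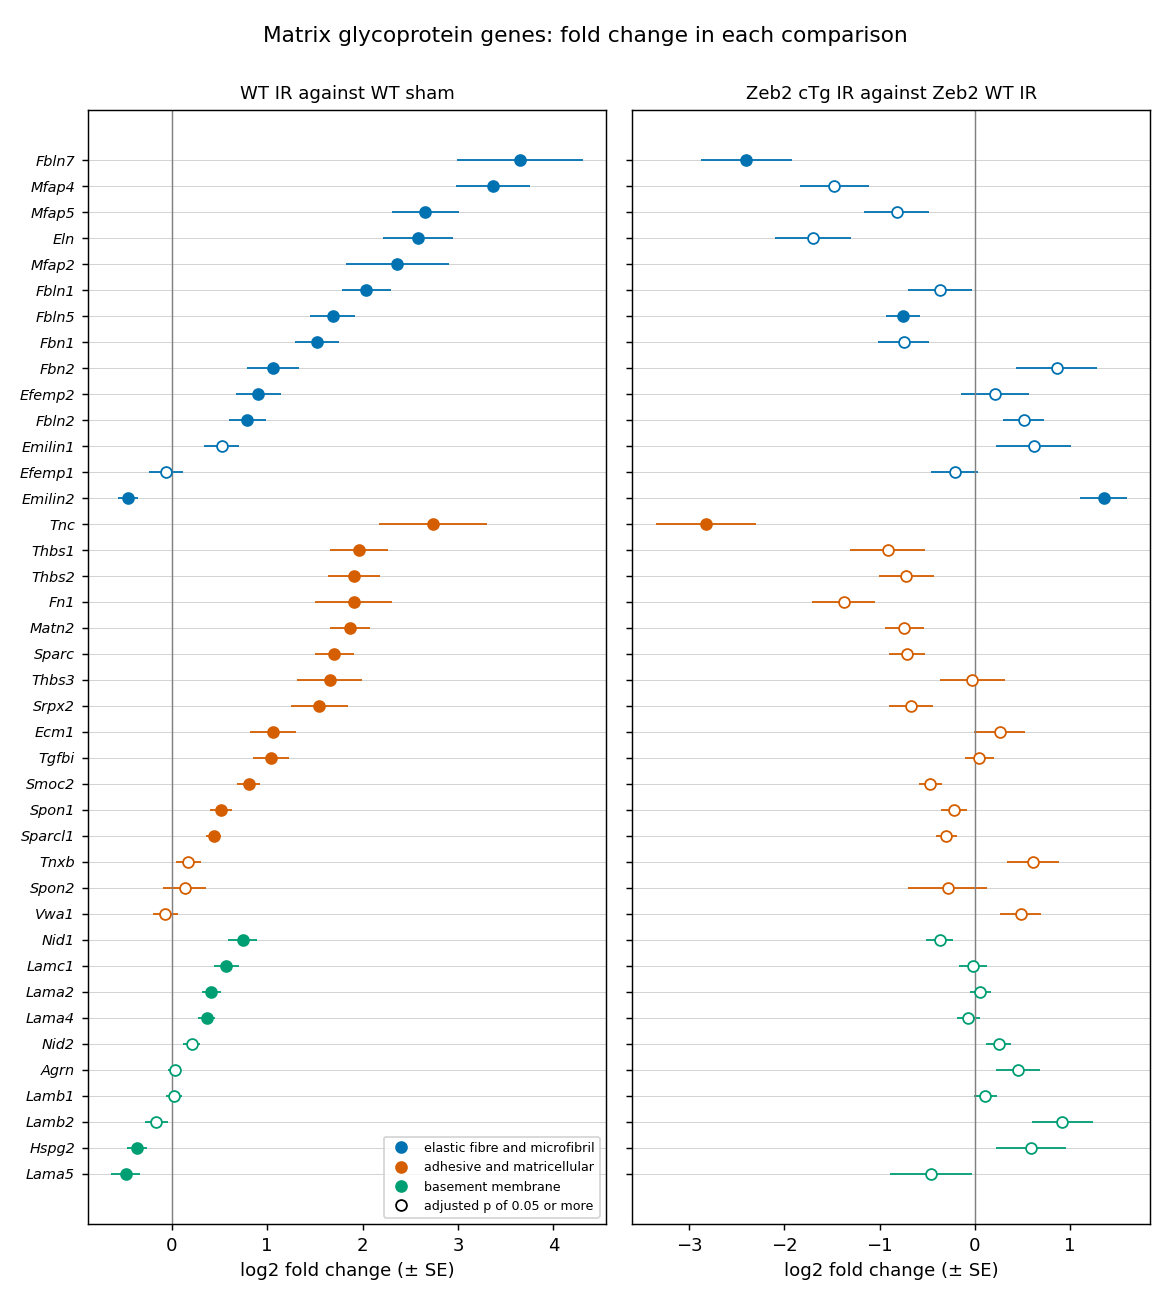
Log2 fold change (points, with bars of 1 standard error) of the 40 genes in WT IR against WT sham (left) and in the cTg-labelled libraries against Zeb2 WT IR (right), coloured by role, filled where the adjusted p was under 0.05. On the left, 28 filled points lie right of 0 and 3 left of it, and on the right 1 lies right of 0 and 3 left of it, with Mfap2 not tested there.

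Among elastic fibre and microfibril genes, 11 of 14 were higher in WT IR, by 1.73-fold to 12.5-fold, and 1 was lower. The shares of all genes were 11.0% and 9.74%. On the scale of the fibroblast markers 3 of the 11 (Fbn2, Fbln2 and Efemp2) changed sign and 6 of the 11 still passed. Mfap4, which encodes a microfibril protein that binds elastin, stood at 3.74, 3.22 and 3.14 CPM in the 3 sham libraries and at 17.8, 31.2 and 56.3 CPM after IR. The lowest injured library was over every sham library by a wide margin, and the fold change was 10.3 (log2 3.37, SE 0.39, adjusted p = 0.00229). Its partner Mfap5, a glycoprotein of fibrillin microfibrils, went from 8.28, 5.40 and 7.33 CPM to 23.2, 40.5 and 68.2 CPM, a 6.31-fold difference (adjusted p = 0.00366). Eln, elastin itself, was at 7.15, 4.57 and 3.73 CPM in sham and at 21.7, 21.8 and 51.0 CPM after IR, 5.99-fold higher (log2 2.58, SE 0.36, adjusted p = 0.00405). For Mfap4, Mfap5 and Eln replicate 3 of WT IR was the highest library.

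Fbn1, fibrillin-1, the main component of microfibrils, carried far more counts than its relative Fbn2, a fibrillin of development. Fbn1 was at 126, 102 and 104 CPM in sham and at 203, 312 and 437 CPM after IR, 2.87-fold higher (log2 1.52, SE 0.23, adjusted p = 0.00480). Fbn2 was 2.09-fold higher, with 4.17 ± 1.46 and 8.90 ± 3.03 CPM (mean ± SD, n = 3 in each group here and below). Per kilobase of transcript, the level of Fbn1 was 9.23 CPM in sham and 26.5 CPM after IR, and that of Fbn2 was 0.377 and 0.806 CPM.

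The fibulins are short glycoproteins that link elastin to microfibrils and to the basement membrane. For 5 of the 6 every WT IR library lay above every sham library, as for 20.5% of all genes. Fbln1 stood at 28.1, 22.4 and 25.1 CPM in sham and at 63.7, 97.3 and 149 CPM after IR, 4.11-fold higher (adjusted p = 0.00345), and per kilobase it had the highest mean of its role in WT IR, 28.3 ± 11.8 CPM, next to Fbn1 at 26.5 ± 9.78 CPM and not separated from it. Fbln5, needed for the assembly of elastic fibres, was at 7.72, 8.52 and 7.62 CPM and at 19.6, 20.3 and 37.7 CPM, 3.22-fold higher (adjusted p = 0.00402). Fbln7 was read from few counts, 3, 3 and 1 in sham and 14, 53 and 48 after IR. The ratio of its summed counts, scaled for library size, was 13.0 with an exact 95% interval of 6.09 to 33.0 that covers counting error only, and its adjusted p was 0.00801. Mfap2, a microfibril glycoprotein, was likewise scarce, with 6, 5 and 1 counts against 16, 25 and 37, a ratio of 5.13 (2.78 to 10.3). Fbln7 and Mfap2 passed the filter on low counts only through WT IR, so their calls are no independent evidence of a rise.

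The EMILINs, glycoproteins at the interface of elastin and microfibrils, split. Emilin2 was at 22.2, 20.1 and 17.5 CPM in sham and at 15.8, 13.5 and 14.3 CPM after IR, a fall to 0.727-fold (log2 -0.46, SE 0.10, adjusted p = 0.0160) with no overlap between the groups, the only lower gene of its role. Emilin1 had a log2 fold change of 0.52 (SE 0.18, adjusted p = 0.0724), and it passed once GC content was corrected for (adjusted p = 0.0189). Efemp1, fibulin-3, was at 2.42 ± 0.14 and 2.35 ± 0.43 CPM (adjusted p = 0.842), whereas Efemp2, fibulin-4, which is required to crosslink elastin, was 1.87-fold higher (adjusted p = 0.0270).

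**Figure D2:**
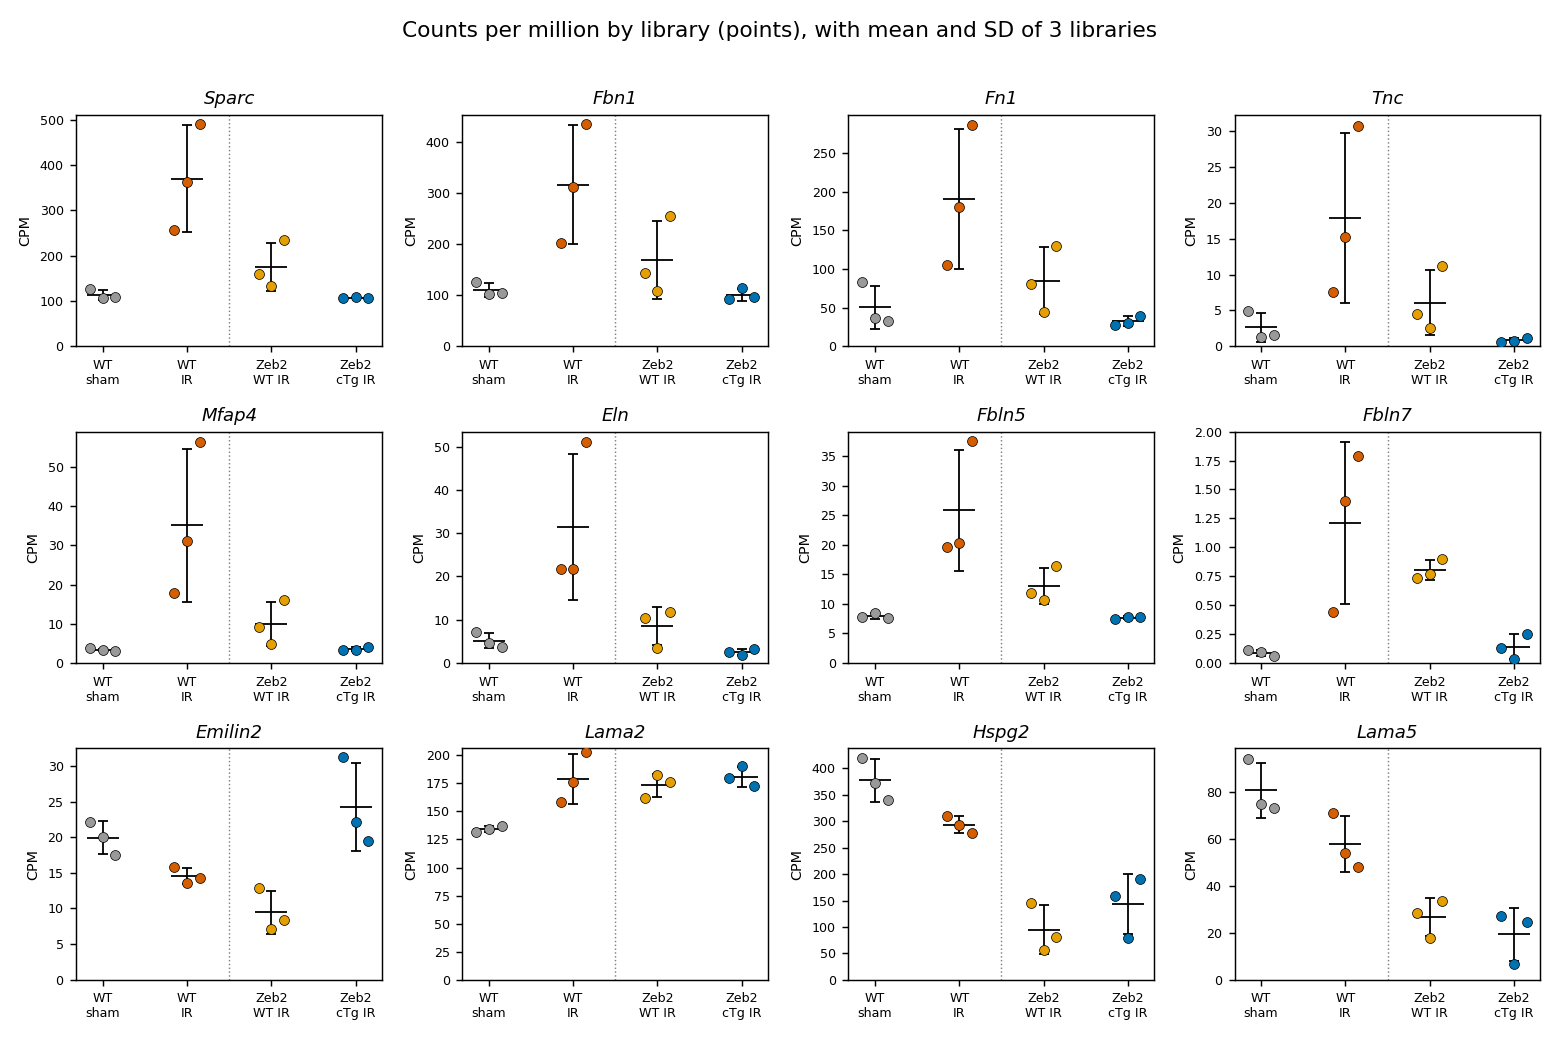
CPM (vertical axes, from 0) of 12 genes in each of the 12 libraries (points), with the mean and SD of the 3 libraries of each group, and a dotted line between the 2 experiments, which were scaled separately. Sparc, Fbn1, Fn1, Tnc, Mfap4, Eln, Fbln5 and Fbln7 lie higher in WT IR than in WT sham, Emilin2, Hspg2 and Lama5 lower, and Emilin2 lies at 19.5 to 31.2 CPM in the cTg-labelled libraries against 7.12 to 12.9 CPM in Zeb2 WT IR.

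Of the 16 adhesive and matricellular genes, 13 were higher in WT IR and none was lower, by edgeR's test with adjustment over all genes. Among all genes 11.0% were higher and 9.74% lower. No gene of the role was lower at an unadjusted p under 0.05 either (0 genes). Scaled to the fibroblast markers, 5 of the 13 changed sign: Sparcl1, Spon1, Tgfbi, Smoc2 and Ecm1. Only 2 of the 13, Tnc and Thbs1, still passed on that scale. Sparc, the collagen-binding protein also called osteonectin, had the highest mean of the 40 per kilobase in all 4 groups, although Sparcl1 overlapped it in Zeb2 WT IR and in the cTg-labelled libraries. Its CPM were 126, 106 and 108 in sham and 256, 362 and 491 after IR, 3.26-fold higher (log2 1.71, SE 0.20, adjusted p = 0.00256). Sparcl1, or hevin, its close relative, moved by 1.35-fold from 104, 113 and 109.7 CPM to 141, 155 and 145 CPM, with no overlap (adjusted p = 0.00812).

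Tnc and Fn1 varied widely between mice. Tnc, which encodes tenascin-C, an anti-adhesive protein made at sites of injury, was at 4.96, 1.32 and 1.57 CPM in sham and at 7.50, 15.2 and 30.8 CPM after IR, 6.68-fold higher (log2 2.74, SE 0.57, adjusted p = 0.0125). Fn1, fibronectin, was at 50.7 ± 27.8 and 191 ± 90.7 CPM, 3.75-fold higher (log2 1.91, SE 0.40, adjusted p = 0.0132). Sham replicate 1 stood above the other 2 sham libraries for both genes. The second tenascin, Tnxb, or tenascin-X, which keeps collagen fibrils spaced, had a log2 fold change of 0.17 (adjusted p = 0.382).

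Thbs1 and Thbs2, the thrombospondins that inhibit vessel growth, both rose, Thbs1 from 16.3, 8.31 and 8.50 CPM to 30.6, 38.2 and 61.5 CPM and Thbs2 from 18.1, 12.6 and 14.0 CPM to 35.7, 51.0 and 81.9 CPM. The folds were 3.90 and 3.76 (adjusted p = 0.00486 and 0.00407). Thbs3, a pentameric thrombospondin, was 3.15-fold higher at a lower level, 2.58 ± 0.49 against 8.21 ± 4.07 CPM. Matn2, matrilin-2, an adaptor of filamentous networks, had the smallest p of the 40, with 9.08, 7.05 and 8.38 CPM against 20.4, 31.0 and 38.0 CPM (log2 1.87, SE 0.21, adjusted p = 0.00208). Smoc2, a calcium-binding relative of SPARC, was at 34.2, 27.4 and 26.8 CPM against 45.2, 51.6 and 58.2 CPM, 1.75-fold higher. Tgfbi, a TGF-beta-induced adhesive protein, was 2.06-fold higher and Srpx2 2.92-fold higher (adjusted p = 0.00797 and 0.00953). Spon2 and Vwa1 did not pass, with adjusted p of 0.696 and 0.747.

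Of the 10 basement membrane genes, 4 were higher, 2 lower and 4 did not pass, against 11.0% higher and 9.74% lower of all genes tested. With 10 genes, 2 lower cannot be read as particular to this role. On the scale of the fibroblast markers all 4 higher genes changed sign. Nid1, nidogen-1, which links laminin to collagen IV, was at 101, 99.96 and 88.4 CPM in sham and at 120.3, 179 and 186 CPM after IR (log2 0.74, SE 0.15, adjusted p = 0.0115). Lamc1, the gamma chain shared by most laminins, went from 117, 112 and 112 CPM to 134, 178 and 195 CPM (log2 0.57, adjusted p = 0.0156). Lama2, the alpha chain of the laminin around muscle cells, was at 131, 135 and 137 CPM and at 158, 176 and 203 CPM, and Lama4, the alpha chain of endothelial basement membrane, at 73.1, 69.6 and 76.1 CPM and at 82.5, 101 and 97.9 CPM. Their folds were 1.33 and 1.29 (adjusted p = 0.0204 and 0.0248), and correcting for GC content took their log2 fold changes from 0.41 to 0.31 and from 0.36 to 0.29, at adjusted p of 0.0523 and 0.0550.

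The 2 lower genes were GC-rich. Hspg2, which encodes perlecan, the heparan sulphate proteoglycan of the basement membrane with the highest mean per kilobase of its role in WT sham (26.6 ± 2.83 CPM, beside 26.1 ± 2.73 CPM for Lamb2), was at 419.5, 373 and 339.6 CPM in sham and at 311, 292 and 278 CPM after IR, 0.778-fold (adjusted p = 0.0370). Lama5 was at 94.2, 74.97 and 73.1 CPM and at 71.1, 54.1 and 47.9 CPM, 0.714-fold (adjusted p = 0.0472). The longest transcripts of these genes had a GC content of 60.9% and 59.9%, beside a median of 49.4% over all genes tested, and correcting for it took their log2 fold changes from -0.36 to -0.11 and from -0.49 to -0.28, at adjusted p of 0.453 and 0.168. Lamb1, Lamb2, Agrn and Nid2 had log2 fold changes between -0.16 and 0.21.

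When each library was omitted in turn, 11 of the 28 higher genes passed all 6 times: Fbn1, Eln, Mfap4, Mfap5, Fbln1, Fbln5, Thbs1, Thbs2, Sparc, Smoc2 and Matn2. The number higher was 11 without WT sham replicate 2 and 15 without WT sham replicate 3, and 24, 31, 19 and 26 without WT sham replicate 1 and WT IR replicates 1, 2 and 3. None of the 3 lower genes passed in every such fit: without WT sham replicate 1, without WT sham replicate 2 and without WT IR replicate 2, 0 were lower, and without WT IR replicate 3, 1 was lower. The 3 lower genes, Emilin2, Hspg2 and Lama5, kept negative values in all 6. Tnc, Fn1, Thbs3 and Mfap2 lost their calls without WT sham replicate 2 and without WT sham replicate 3, and Fbln7, Sparcl1, Tgfbi and Srpx2 without WT sham replicate 2. Lama4 kept its call in 1 of the 6 fits, Lama2, Lamc1, Efemp2 and Spon1 in 2, and Nid1, Fbn2, Fbln2 and Ecm1 in 3.

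Ratios of related genes within a library do not depend on scaling, and 14 pairs were compared by an exact two-sided permutation test of 3 against 3 libraries, for which 0.1 is the smallest p possible. The ratios were not corrected for GC content, which differs within some pairs, as for Lama4 (50.0%) and Lama5 (59.9%). In WT IR the ratio lay outside the range of WT sham for 9 pairs, each at an exact permutation p of 0.1 and 0.156 after adjustment over the pairs. Among single genes, 20.5% lay higher without overlap and 19.3% lower, and other gene pairs were not counted. The log2 ratio of Fbln1 to Fbln2 was -0.89, -1.01 and -0.62 in sham and 0.17, 0.38 and 0.52 after IR, so Fbln1 went from the lesser to the greater of the 2. Sparc to Sparcl1 differed by 1.22, Tnc to Tnxb by 2.63, Emilin1 to Emilin2 by 0.94, Lama4 to Lama5 by 0.85, Mfap4 to Mfap5 by 0.69, Nid1 to Nid2 by 0.52 and Thbs2 to Thbs3 by 0.29, all towards the first gene, whereas Efemp1 to Efemp2 differed by -0.98. The ratio of Lama2 to Lama4, the alpha chains of muscle and endothelium, was close in both groups, with log2 means of 0.88 ± 0.06 and 0.93 ± 0.12. Thbs1 to Thbs2 was at -0.49 ± 0.30 and -0.35 ± 0.11.

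**Figure D3:**
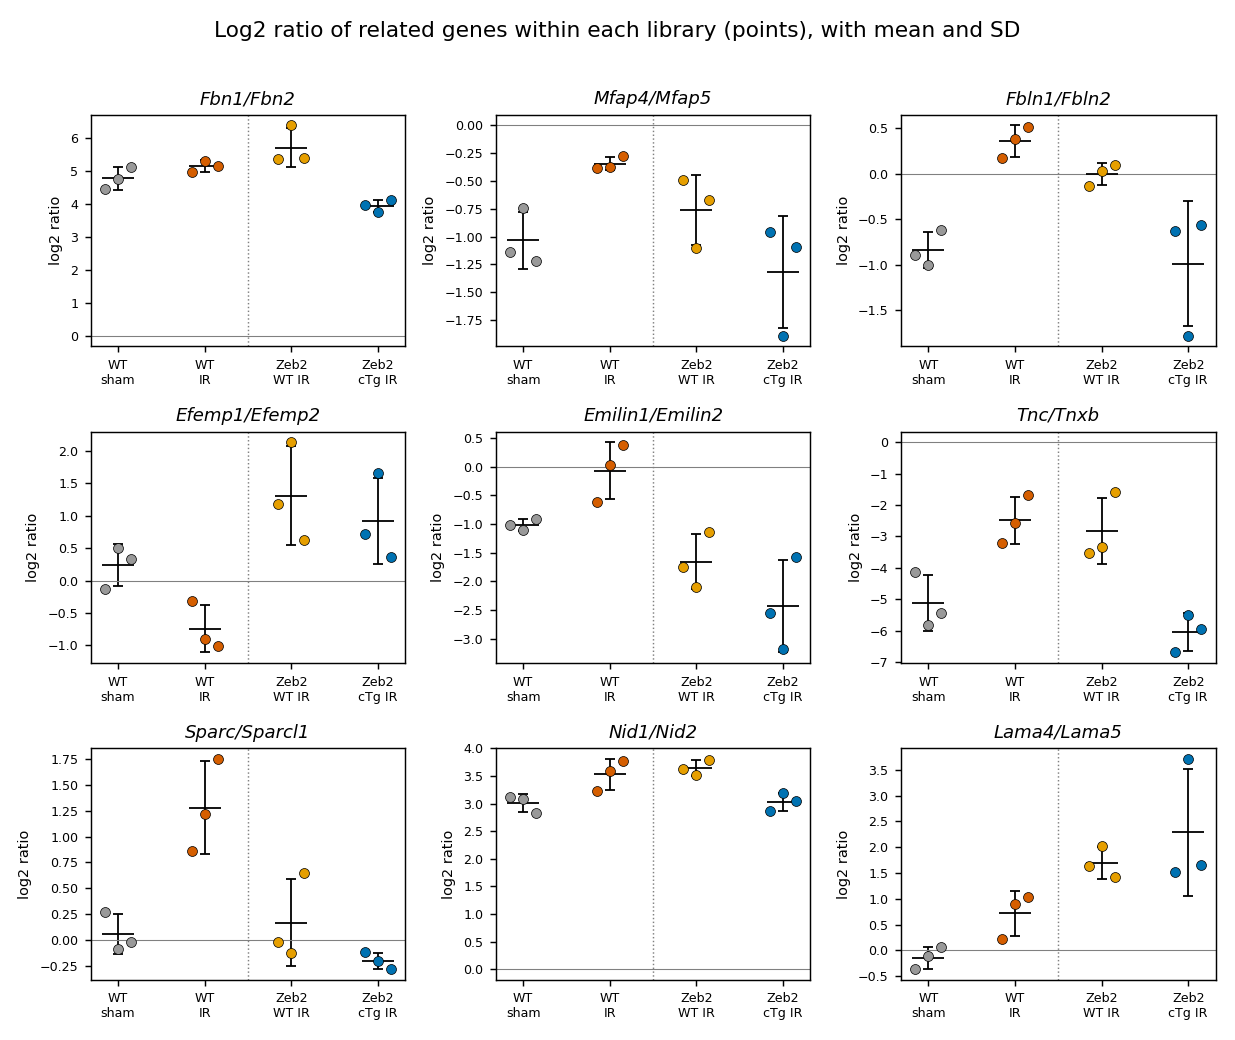
Log2 ratio of the CPM of 9 related pairs within each library (points, with mean and SD of each group of 3). Ratios of Fbln1 to Fbln2, Tnc to Tnxb and Nid1 to Nid2 are raised in WT IR against WT sham and reduced in the cTg-labelled libraries against Zeb2 WT IR, without overlap in either experiment. How often other gene pairs do so was not counted.

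Receptors and further glycoproteins of the matrix were read from 2 other lists. Of 29 matrix receptors, 9 were higher in WT IR and 4 lower, against 11.0% and 9.74% of all genes, so the number lower was near that of genes at large. The smallest p-values among the higher belonged to Itga11, a collagen-binding integrin chain (3.07-fold), Ddr2, a collagen receptor of fibroblasts (1.62-fold), Sdc2 and Sdc1, which are syndecans (1.63-fold and 2.35-fold), and Itgav, the alpha chain of the fibronectin and vitronectin receptors (1.58-fold). Those lower were Itgb6 (0.641-fold), Ddr1 (0.761-fold), Itga7, the alpha chain of the laminin receptor of muscle (0.789-fold), and Bcam, a receptor for Lama5 (0.694-fold). Of 48 other matrix glycoproteins tested, 21 were higher and 2 lower. Comp, a thrombospondin of tendon and cartilage, had a mean of 0.485 CPM in sham and 36.8 CPM after IR (log2 6.22, SE 0.51). Ltbp2, a microfibril-binding protein, was 31.9-fold higher, and Thbs4 and the matricellular genes Ccn5 and Ccn2 had log2 fold changes of 4.31, 3.83 and 2.24. Hmcn2, a hemicentin (log2 -0.73), and Frem2, a basement membrane protein (log2 -0.58), were lower.

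The second question was how the same genes stood after IR in the cTg-labelled libraries against Zeb2 WT IR. Of the 40 genes, 39 were tested, since Mfap2 had 2, 0 and 4 counts against 4, 0 and 7. Emilin2 was higher and Tnc, Fbln7 and Fbln5 were lower at an adjusted p under 0.05, so 1 and 3 of 39, against 2.14% and 1.51% of all 13018 genes tested. The groups did not overlap for 3 genes that were higher (Emilin2, Fbln2 and Nid2) and for 14 that were lower, against 13.4% and 12.8% of all genes. The median log2 fold change of the 39 was -0.22, beside 0.01 for all genes, with -0.37 for elastic fibre and microfibril genes, -0.38 for adhesive and matricellular genes and 0.09 for the basement membrane.

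These counts depended on the scaling, on GC content and on single libraries. With the correction for GC content 1 was higher and 9 lower, scaled to the cardiomyocyte markers 1 and 11, and scaled to the fibroblast markers 11 and 5. The all-gene median was -0.26 and that of the 39 genes -0.49 on the cardiomyocyte scale, and 0.49 and 0.25 on the fibroblast scale. The 39 lay -0.23 from all genes on the main scale and -0.23 and -0.24 from them on these. Rescaling leaves that distance nearly fixed, so it tests nothing. The 18 fibroblast markers summed to 1223 to 2205 CPM in Zeb2 WT IR and 880 to 1284 CPM in the cTg-labelled libraries, with 4 of 18 lower and none higher (0 genes at an unadjusted p under 0.05). Pdgfra was at 40.9 ± 7.65 and 30.3 ± 3.52 CPM and Tcf21 at 1.27 ± 0.23 and 1.27 ± 0.27 CPM, neither passing the test. The 16 macrophage markers summed to 204 to 277 CPM and 212 to 247 CPM. The 18 endothelial markers summed to 1556 to 1786 CPM and 1330 to 1368 CPM, without overlap, with 0 of 18 genes passing (2 higher and 5 lower at an unadjusted p under 0.05). The sums of 13 markers of smooth muscle and pericytes, 759 to 882 CPM and 647 to 727 CPM, did not overlap either. Of these 13 genes, 8 had positive and 5 negative fold changes (median log2 0.07), with 1 called higher and 1 lower. Their lower sum therefore does not describe most of them. The 22 cardiomyocyte markers summed to 62817 to 67421 CPM and 70960 to 74473 CPM, with 3 higher. The part of these markers in the differences was not tested.

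Tnc lies on chromosome 4 (63959785 to 64047015, GRCm38, minus strand). It was at 4.47, 2.55 and 11.2 CPM in Zeb2 WT IR and at 0.587, 0.802 and 1.12 CPM in the cTg-labelled libraries, so the lowest control was over the highest cTg-labelled library. It fell by 2.83 on the log2 scale (SE 0.53, fold 0.141, adjusted p = 0.0240), and it did not pass with limma-voom (adjusted p = 0.0627). The call was lost without Zeb2 WT IR replicate 3, which was the highest library, and without cTg-labelled replicates 1 or 3, while the log2 fold change stayed between -3.19 and -2.04.

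Emilin2 lies on chromosome 17 (71252172 to 71311978, minus strand). It was at 12.9, 7.12 and 8.43 CPM in Zeb2 WT IR and at 31.2, 22.1 and 19.5 CPM in the cTg-labelled libraries, 2.55-fold higher (log2 1.35, SE 0.25, adjusted p = 0.0222). The groups did not overlap. The call was lost without Zeb2 WT IR replicates 2 or 3 and without cTg-labelled replicate 1, with log2 fold changes from 1.13 to 1.64.

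Fbln7, an adhesive fibulin, lies on chromosome 2 (128862981 to 128897034, plus strand). It had 20, 19 and 27 counts in Zeb2 WT IR and 3, 1 and 9 in the cTg-labelled libraries. Fbln7 passed the filter on low counts only through Zeb2 WT IR, so its call is no independent evidence of a fall. The scaled ratio of the summed counts was 0.189 with an exact 95% interval of 0.0954 to 0.345 for counting error, and its adjusted p was 0.0304. The call was lost without any 1 of the Zeb2 WT IR replicates 1, 2 or 3 or cTg-labelled replicate 1, where 2 of 6 fits kept it. Fbln5 lies on chromosome 12 (101746565 to 101819055, minus strand) and was at 11.9, 10.6 and 16.5 CPM against 7.50, 7.75 and 7.86 CPM, so the 3 cTg-labelled libraries nearly coincided. It fell by 0.76 on the log2 scale (SE 0.18, adjusted p = 0.0497). Scaled to the fibroblast markers, Fbln5 did not pass (log2 -0.23, adjusted p = 0.511), nor did it with limma-voom (adjusted p = 0.0634). Without Zeb2 WT IR replicates 1 or 3 or cTg-labelled replicates 1 or 3 it no longer passed.

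The study concerns a factor that binds E-box-like sites built around CACCT, so the stretch before the transcription start is shown for these 4 genes, the only ones of the 40 called in both experiments. Each is 250 bases before a RefSeq start on GRCm38.p6, written 5′ to 3′ on the strand of the gene, at chr4:64047016-64047265 (Tnc, minus), chr2:128863682-128863931 (Fbln7, plus), chr12:101819120-101819369 (Fbln5, minus) and chr17:71311012-71311261 (Emilin2, minus). For genes with 2 starts the window free of annotated exons is given. The windows of Tnc and Fbln5 lie upstream of the whole gene and those of Fbln7 and Emilin2 in an intron of it, and those of Tnc and Emilin2 also lie in introns of non-coding genes on the opposite strand (8030451A03Rik and Gm26561). Capitals mark CACCT or its reverse complement AGGTG.
Tnc: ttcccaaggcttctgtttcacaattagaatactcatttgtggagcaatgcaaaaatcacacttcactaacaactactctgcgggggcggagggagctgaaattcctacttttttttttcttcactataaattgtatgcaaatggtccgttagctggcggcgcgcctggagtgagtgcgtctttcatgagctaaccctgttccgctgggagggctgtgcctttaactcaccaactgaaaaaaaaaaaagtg
Fbln7: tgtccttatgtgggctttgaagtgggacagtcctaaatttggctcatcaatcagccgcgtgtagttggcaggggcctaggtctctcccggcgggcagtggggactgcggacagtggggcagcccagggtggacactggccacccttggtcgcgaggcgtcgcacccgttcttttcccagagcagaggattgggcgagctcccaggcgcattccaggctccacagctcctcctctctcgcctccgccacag
Fbln5: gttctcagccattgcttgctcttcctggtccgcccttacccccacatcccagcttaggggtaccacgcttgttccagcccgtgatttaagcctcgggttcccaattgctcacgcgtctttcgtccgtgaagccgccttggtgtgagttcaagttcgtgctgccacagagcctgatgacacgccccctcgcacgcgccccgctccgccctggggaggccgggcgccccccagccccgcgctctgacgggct
Emilin2: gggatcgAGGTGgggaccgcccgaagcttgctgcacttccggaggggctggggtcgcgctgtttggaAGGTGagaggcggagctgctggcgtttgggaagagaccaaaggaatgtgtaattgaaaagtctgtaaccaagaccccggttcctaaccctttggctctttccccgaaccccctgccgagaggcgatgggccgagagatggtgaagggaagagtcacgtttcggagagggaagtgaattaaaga

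The Emilin2 window held the motif 2 times and the other 3 windows did not hold it. Over all 32851 windows of this length in the table, 46.0% held CACCT on either strand, and of 33 windows of 25 of the 40 genes, 14 did (42.4%). The longer CACCTG, whose reverse complement is CAGGTG and which contains the shorter motif, was in 17.2% of all windows and in 1 of the 33. A match of letters is no measurement of binding, and a window without one does not speak of sites elsewhere.

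Several further genes lay close to the threshold. Eln was at 10.3, 3.56 and 11.7 CPM in Zeb2 WT IR and at 2.60, 1.95 and 3.29 CPM in the cTg-labelled libraries, which did not overlap, with an adjusted p of 0.05003 just outside the threshold. Fn1 was at 84.8 ± 43.2 and 32.6 ± 6.05 CPM (log2 -1.38, SE 0.33, adjusted p = 0.0525) and Mfap4 at 9.13, 4.94 and 16.1 CPM against 3.27, 3.36 and 4.18 CPM (adjusted p = 0.0564). Eln, Fn1 and Mfap4 passed without Zeb2 WT IR replicate 2 and without cTg-labelled replicate 2, and also when GC content was corrected for (adjusted p = 0.00727, 0.0231 and 0.0267). Each passed in only those 2 of the 6 fits with a library left out, and none passed with limma-voom (adjusted p = 0.0982, 0.0757 and 0.101). Sparc was at 159, 132 and 233 CPM against 107, 108 and 106 CPM (log2 -0.71, SE 0.19, adjusted p = 0.0710), and the spread among the cTg-labelled libraries was small, with an SD of 0.63 CPM. Smoc2 and Matn2 had log2 fold changes of -0.47 and -0.74 (adjusted p = 0.0670 and 0.0767). The number lower was 6 without Zeb2 WT IR replicate 2 and 8 without cTg-labelled replicate 2, 0 without Zeb2 WT IR replicate 3 or cTg-labelled replicate 1, and 1 without Zeb2 WT IR replicate 1 or cTg-labelled replicate 3. The number higher was 0 without Zeb2 WT IR replicates 2 or 3 or cTg-labelled replicate 1, and 3 without cTg-labelled replicate 2.

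No basement membrane gene passed in this comparison by edgeR's test (0 of 10), which with 2.14% of all genes higher and 1.51% lower is nothing particular to this role, and at an unadjusted p under 0.05 there were 1 higher and 1 lower. Lama2 was at 162, 182 and 176 CPM and at 179, 190.2 and 172 CPM, and Lamc1 at 116, 95.8 and 118 CPM and at 109.7, 91.8 and 125 CPM, so the groups overlapped for both. The log2 fold changes were 0.06 (SE 0.11) and -0.01 (SE 0.15). Lamb2, the beta chain of laminins at the neuromuscular junction and in vessels, was at 66.2 ± 18.8 and 125 ± 52.0 CPM (log2 0.92, SE 0.32, adjusted p = 0.129). Hspg2 was at 146, 57.3 and 80.7 CPM against 158, 79.6 and 190.2 CPM, with replicate 2 lowest in both groups, and the correction for GC content took its log2 fold change from 0.59 to 0.07. Lama5 was at 28.5, 17.97 and 33.6 CPM against 27.2, 6.57 and 24.4 CPM, again with replicate 2 lowest.

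Across the 14 pairs, the ratio lay outside the range of Zeb2 WT IR for 4, each at an exact permutation p of 0.1 and 0.350 after adjustment. Among single genes, 13.4% lay higher without overlap in this comparison and 12.8% lower, and other gene pairs were not counted. The 4 therefore cannot be read as particular to these pairs. The log2 ratio of Fbn1 to Fbn2 was 5.36, 6.38 and 5.37 in Zeb2 WT IR and 3.96, 3.74 and 4.11 in the cTg-labelled libraries. That of Nid1 to Nid2 was 3.62, 3.52 and 3.80 against 2.86, 3.19 and 3.05. Fbln1 to Fbln2 differed by -0.99 and Tnc to Tnxb by -3.23. These ratios too were not corrected for GC content. That correction took the log2 fold change of Tnxb from 0.61 to 0.10 and that of Tnc from -2.83 to -2.96.

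The 2 experiments share no libraries, so their fold changes can be set side by side. All 4 genes called in the second had been called the opposite way in the first: Tnc, Fbln7 and Fbln5 were higher in WT IR, and Emilin2 was lower. Fbln7 passed the filter on low counts in each experiment only through its higher group, so its opposite calls are no independent evidence. Of the 39 genes tested in both, 26 had fold changes of opposite sign, 22 of them positive in the first and negative in the second, and 13 had the same sign. The shares of all genes with opposite calls or opposite signs were not counted. These counts therefore cannot be read as particular to the 40 genes. On the scale of the fibroblast markers 18 of 40 genes changed sign in the first comparison and 11 of 39 in the second. Spearman's rho between the 2 sets of log2 fold changes was -0.75 over the 39 genes and -0.37 over the 12791 genes tested in both. With the correction for GC content in each fit the values were -0.70 and -0.25. Genes are not independent replicates, and the dependence on GC content, which ran in opposite directions in the 2 experiments, enters both correlations. Fbn2 was among the genes with the same sign, at 2.09-fold in the first and 1.81-fold in the second (adjusted p = 0.251). Lama5 had negative values in both, -0.49 and -0.46, of which only the first passed, and whether these differ was not tested.

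**Figure D4:**
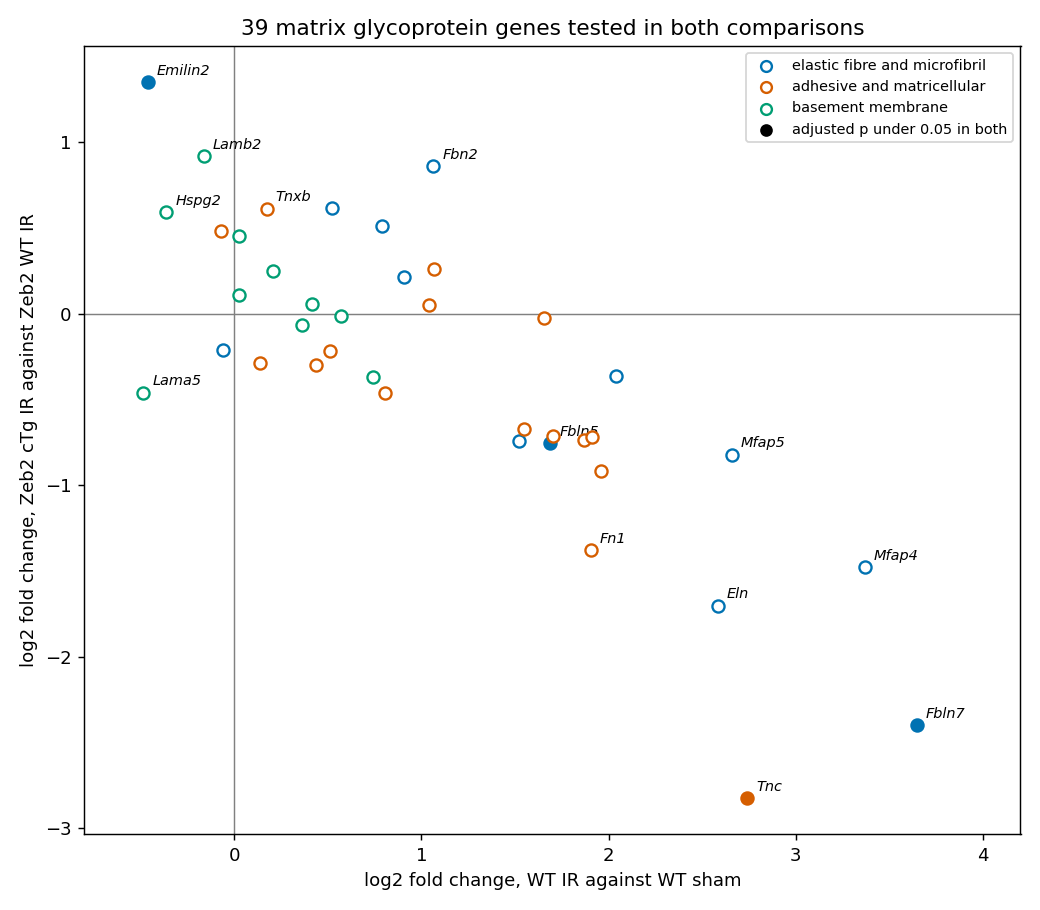
Log2 fold change in WT IR against WT sham (horizontal) and in the cTg-labelled libraries against Zeb2 WT IR (vertical) for 39 genes, coloured by role and filled where both adjusted p were under 0.05. The filled points of Tnc, Fbln7 and Fbln5 lie at the lower right and that of Emilin2 at the upper left, and 26 of the 39 points lie in the quadrants of opposite sign. The share of all genes in those quadrants was not counted.

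Among the receptors only Itgb8, an integrin chain that activates TGF-beta, passed in the second comparison, at 0.423-fold (adjusted p = 0.0249), and 1 of 29 lower is near the 1.51% of all genes. Of the other matrix glycoproteins 6 were lower and 1 higher. Ccn4 fell by 2.67 on the log2 scale (SE 0.28, adjusted p = 0.00204) and Ntn1, netrin-1, a guidance protein, by 1.08. Cthrc1, a secreted protein of activated fibroblasts, fell by 4.01 from a mean of 2.26 CPM to 0.130 CPM, and Mmrn1 and Ecm2 were 0.541-fold and 0.557-fold. Frem2 was 1.89-fold higher (adjusted p = 0.0176), having been 0.671-fold in WT IR.

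The annotation limits how firmly some members can be read. Exons of 16 of the 40 genes overlap an exon of another annotated gene, in 15 cases only on the opposite strand, including Tnc, Eln, Fn1, Fbn1 and Mfap4. The libraries were made with a stranded kit, and whether counting used the strand is not given in the sources used here.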

How the data were processed

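Hearts of 4 groups of 3 mice were sequenced by the authors as strand-specific single-end libraries, and the methods name a total RNA kit where the labels name an mRNA kit. The authors deposited 2 tables of raw, whole-number counts per gene, 6 libraries each, and per the labels' processing notes used STAR 2.4.2a and HTSeq 0.6.1 with mm10. The methods name GENCODE M4. The design text states 3 animals per group, and replicate numbers belong to different animals.

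Each table was fitted alone in R 4.3.3 with edgeR 4.0.16 (TMM, filterByExpr with a minimum count of 10 and a minimum total of 15, quasi-likelihood test, Benjamini-Hochberg adjustment over all genes tested, threshold 0.05), and the fit was tested on simulated data. The members and gene lists were chosen with earlier results of these data known. Values in every library are given for members that passed in either comparison (at most the 8 with the smallest p per role), the most abundant per length in each role and a few chosen afterwards (Fn1 as mean and SD, Lama2, Lamc1 and genes near the threshold). Other lists name at most 5 genes per direction, and Ddr2 is on both the receptor and the fibroblast list. Symbols, positions, transcript lengths and GC content come from GENCODE M21 on the same build, in which 36429 of the 38293 identifiers have a symbol, and promoter sequences from RefSeq (GRCm38.p6).

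Alternatives tried were size factors by RLE, by the upper quartile or from cardiomyocyte or fibroblast markers, no mitochondrial genes, other filters, the replicate number as a block, a GC correction (loess, span 0.5, as an offset), both together, all 12 libraries in 1 fit, DESeq2 1.42.0, limma-voom (limma 3.58.1), other thresholds and each library left out. The DESeq release named by the study was not used here. No 2 libraries agreed within sampling noise: the chi-square per gene was at least 7.36 within groups.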

Additional observations from a re-analysis of the deposited data

How the results depend on the processing

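Leaving out 1 library at a time gave 11 to 31 genes higher and 0 to 3 lower in WT IR, and 0 to 3 higher and 0 to 8 lower in the second comparison. For WT IR (28 higher, 3 lower), scaling to fibroblast markers gave 8 and 11, and a threshold of 0.01 gave 15 and 0. The number lower was 0 with cardiomyocyte markers and with all 12 libraries in 1 fit, and 1 with the GC correction, alone or with the replicate block. For the Zeb2 comparison (1 higher, 3 lower), the number lower was 5 with RLE, 11 with cardiomyocyte markers, 5 with fibroblast markers, 12 without a filter, 1 with at least 10 counts in every library, 10 with the replicate block, 9 with the GC correction, 12 with both, 9 with all 12 libraries, 10 with DESeq2, 1 with limma-voom, 0 at 0.01 and 16 at an unadjusted p under 0.05. The number higher was 11 with fibroblast markers, 3 without a filter, 5 with the replicate block, 2 with all 12 libraries, 2 with DESeq2, 0 at 0.01 and 4 unadjusted. The cause of these shifts was not tested.

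Replicate numbers belong to different animals. Same-numbered libraries had correlations of -0.03, 0.01 and -0.01 in the first table and 0.13, 0.26 and -0.04 in the second. Those with different numbers ranged from -0.11 to 0.11 in the first table and from -0.33 to 0.33 in the second, so the same-numbered values did not stand out. Whether same-numbered libraries shared a batch was not tested. With the replicate block the first comparison kept 28 higher and 3 lower. The second went to 5 higher and 10 lower, and its calls over all genes went from 278 higher and 196 lower to 1164 and 649.

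Among fold changes that passed in their own comparison, those that changed sign did so with fibroblast-marker scaling in WT IR against WT sham, where the median of all genes was -1.09: Fbn2 -0.086, Fbln2 -0.39, Efemp2 -0.23, Sparcl1 -0.67, Spon1 -0.61, Tgfbi -0.14, Smoc2 -0.32, Ecm1 -0.13, Nid1 -0.41, Lama2 -0.72, Lama4 -0.76, Lamc1 -0.58 and, outside the 40, Zeb2 -0.67. Genes not called also changed sign there: Emilin1 -0.65, Tnxb -0.97, Spon2 -1.05, Nid2 -0.90, Lamb1 -1.07 and Agrn -1.06. In the same comparison cardiomyocyte markers gave Efemp1 0.20, Lamb2 0.092 and Vwa1 0.21, and the GC correction gave Lamb1 -0.015 and Vwa1 0.028, or -0.015 and 0.032 together with the block.

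In the Zeb2 comparison the genes that changed sign had not passed in it. Fibroblast markers gave Efemp1 0.23, Fbln1 0.15, Lama4 0.43, Lama5 0.057, Lamc1 0.47, Nid1 0.13, Smoc2 0.029, Sparcl1 0.18, Spon1 0.25, Spon2 0.27, Thbs3 0.56 and Zeb2 0.43. Cardiomyocyte markers gave Ecm1 -0.017, Efemp2 -0.071, Lama2 -0.21, Lamb1 -0.16, Nid2 -0.022 and Tgfbi -0.21. The GC correction gave Ecm1 -0.14, Efemp2 -0.0065, Lamb1 -0.024, Tgfbi -0.11 and Zeb2 0.15, and with the block as well Ecm1 -0.14, Efemp2 -0.025, Lamb1 -0.024, Tgfbi -0.13 and Zeb2 0.15. Thbs3 was 0.063 with the block and 0.095 with limma-voom.

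Omitting 1 library took genes near 0 across it: in WT IR Agrn (-0.017 to 0.048), Efemp1 (-0.16 to 0.099), Lamb1 (-0.033 to 0.077), Spon2 (-0.17 to 0.33) and Vwa1 (-0.18 to 0.025), and in the Zeb2 comparison Efemp2 (-0.18 to 0.42), Lamc1 (-0.13 to 0.088), Spon2 (-0.58 to 0.25), Tgfbi (-0.047 to 0.11), Thbs3 (-0.28 to 0.55) and Zeb2 (-0.13 to 0.019). Scarce genes (Fbln7, Mfap2) are limited by counting error, and 3 libraries per group by the spread between mice.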
